A study of Mus musculus with 8 samples.

Results

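Myokines are proteins that muscle releases, and 6 of their genes were followed here: Fndc5, Ostn, Il15, Metrnl, Fgf21 and Gdf15. They were chosen by name, as genes of proteins secreted by muscle, out of 43239 named genes in the deposited tables, and each stood on a single entry. The choice was made with earlier results of these data known, so the values below describe these libraries and are no independent evidence of a direction. Quadriceps muscle of female mice aged 6 months gave 8 RNA-seq libraries, whose titles carry different numbers. Of these, 4 libraries are labelled Mss51-/- (here KO) and 4 wild type (WT). The labels give the knockout no further description (no promoter, Cre driver, clone or strain), and no treatment is given for either genotype. The series title places the study in muscle metabolism and glucose homeostasis.

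Muscle signals to other organs through secreted peptides and cytokines. Fndc5 is a membrane protein whose outer part is released as irisin, and in mice it is induced by the coactivator PGC-1alpha. Ostn encodes osteocrin, also named musclin, a peptide that resembles natriuretic peptides and binds their clearance receptor Npr3. Il15 is a cytokine of lymphocyte survival that muscle also makes, and Metrnl (meteorin-like) is released by mouse muscle after exercise. Fgf21 and Gdf15 are hormones that mouse muscle makes under mitochondrial stress, through the integrated stress response and its factor Atf4.

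Levels are FPKM (fragments per kilobase of transcript, scaled to the mapped fragments of a library) as deposited, a unit per length in which genes can be compared with each other. The labels state 50 M read pairs (M for mega), and the low values of genes with a single transcript gave a rough depth of 35.9 to 59.6 M fragments per library. Mss51, the targeted gene, stood at 340, 201, 216 and 207 FPKM in the libraries labelled KO, against 22.9, 37.0, 27.5 and 24.8 FPKM in those labelled WT. It was thus higher, not lower, where the label says knockout, so KO and WT below are the labels' groups and every direction rests on them. As checks of the tissue, Ckm (muscle creatine kinase) lay between 9230 and 12716 FPKM over the 8 libraries. Myh4 (the fast myosin of most quadriceps fibres) is listed at 0 in all of them. Acta1, also sought as a muscle marker, was not found among the named entries. KO replicate 1 stood apart from the other libraries labelled KO in several genes described below, so results are given with and without it. By correlation over all genes tested it did not stand apart, a measure that rests largely on level differences between genes. Median correlations with the other libraries labelled KO were 0.940, 0.938, 0.945 and 0.934 for KO replicates 1 to 4. By the number of genes that passed (limma, adjusted p under 0.05) it did stand apart. That number was 125 without it, 4 to 8 without any other single library, and 6 with all 8. Leaving it out takes away the KO library nearest to WT in Fndc5 and Ostn, so results without it are a description chosen on these values. Differences are KO minus WT on the log2(FPKM + 0.5) scale, which understates the change of low genes.

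Fndc5 has a start region that is rich in G and C, shown because this member differed most upward. The window is 250 bases before its start (GRCm38.p6, chr4:129136749-129136998, plus strand, RefSeq). Its G and C content was 80.8%, against a median of 52.4% over 32851 such windows. The windows of Metrnl (68.4%), Fgf21 (59.6%) and Gdf15 (56.4%) also lay above that median. Part of the Fndc5 window also lies in the annotated exon of a long noncoding RNA, Gm15906, which is listed at 0 in every library.
Fndc5: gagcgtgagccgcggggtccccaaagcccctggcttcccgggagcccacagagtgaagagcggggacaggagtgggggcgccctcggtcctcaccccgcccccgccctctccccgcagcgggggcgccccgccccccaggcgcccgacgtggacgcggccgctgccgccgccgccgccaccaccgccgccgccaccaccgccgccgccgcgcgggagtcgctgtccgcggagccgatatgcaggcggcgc
Neither AAGGTCA, an element of the estrogen-related receptors that work with PGC-1alpha (in 4.08% of windows), nor TATAAA (12.4%) occurs in it on either strand. Fgf21 is shown for contrast, as the member listed at or near 0 (GRCm38.p6, chr7:45615491-45615740, minus strand, RefSeq).
Fgf21: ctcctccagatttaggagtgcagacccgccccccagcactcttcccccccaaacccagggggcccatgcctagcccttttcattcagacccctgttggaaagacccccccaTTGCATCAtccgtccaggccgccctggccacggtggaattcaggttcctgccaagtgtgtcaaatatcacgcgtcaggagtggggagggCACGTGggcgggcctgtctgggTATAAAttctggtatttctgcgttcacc
Capitals mark 3 matches. The run TTGCATCA begins 139 bases before the start and is TGATGNAA on the opposite strand, the composite element that Atf4 is known to bind, present in 3.45% of windows. CACGTG begins 50 bases before the start (6.02% of windows) and TATAAA 28 bases before it. Windows were given for 4 of the 6 genes (Fndc5, Fgf21, Gdf15 and Metrnl), and in the window before the deposited start of Gdf15 none of the 4 motifs searched occurs, while one at a second annotated start holds CACGTG, 83 bases before that start. The window of Metrnl, whose start is not the deposited one, holds none of the 4. A match of letters is a description of the sequence and says nothing of binding in these muscles.

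In quadriceps 4 of the 6 genes were measurable, taken as averaging 1 FPKM or more across all libraries. Their order was Fndc5 (mean 35.8 FPKM), Ostn (18.2), Il15 (17.0) and Metrnl (12.3), while Gdf15 averaged 0.187 FPKM and Fgf21 was listed at 0 in 6 of 8 libraries. The order changed with the library, since Ostn was above Fndc5 in WT replicate 2 and below it in the other 7. Ostn and Il15, neighbours in the order, crossed between the groups: Ostn lay below Il15 in KO replicates 2, 3 and 4 and above it in KO replicate 1 and in every WT library. No member lay near the limit of 1 FPKM, with Metrnl next above it and Gdf15 next below. Of all 11878 genes past that limit, 82.2% had a lower mean than Fndc5, 69.1% a lower mean than Ostn, 67.3% than Il15 and 59.4% than Metrnl.

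**Figure D1:**
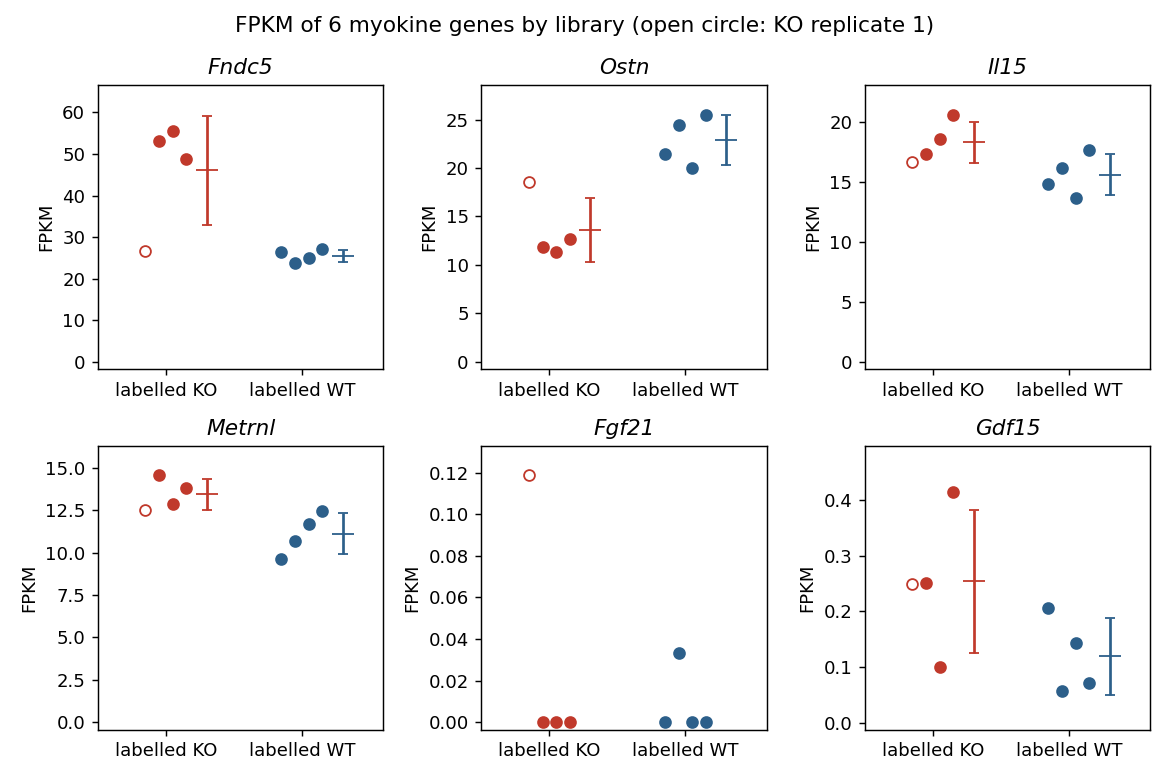
FPKM of the 6 genes in each library, with libraries labelled KO at left in red, those labelled WT at right in blue, an open circle for KO replicate 1, and the mean and SD of each group beside the points (none for Fgf21, which is listed at 0 in 6 libraries). Fndc5 sits at 48.9 to 55.5 FPKM in KO replicates 2 to 4 and at 26.7 in KO replicate 1, inside the WT range.

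Fndc5 was high in 3 of the 4 libraries labelled KO. It stood at 26.7, 53.1, 55.5 and 48.9 FPKM in KO replicates 1 to 4, against 26.3, 23.9, 24.9 and 27.0 FPKM in WT replicates 1 to 4. The groups overlapped through KO replicate 1 alone, which lay between WT replicates 1 and 4. Means were 46.1 ± 13.2 FPKM in KO and 25.5 ± 1.43 FPKM in WT (SD, n = 4 each). The log2 difference of 0.79 (SE 0.21) did not pass the test over all genes (limma, adjusted p = 0.347; exact permutation p = 0.0571, two-sided, where 0.0286 is the smallest possible). Without KO replicate 1 the KO mean was 52.5 ± 3.34 FPKM (SD, n = 3), 2.04 times the WT level on the log scale. The difference was then 1.03 (SE 0.08, 95% interval 0.85 to 1.201) and passed (limma, adjusted p = 0.00360), with the 4th smallest p of the 11878 genes. In bulk tissue, more cells or fibres that make an RNA cannot be told apart from more RNA per cell, and so for less.

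Ostn differed in the opposite direction, with each library labelled KO below every one labelled WT. It stood at 18.5, 11.8, 11.4 and 12.7 FPKM in KO replicates 1 to 4, against 21.4, 24.5, 19.99 and 25.5 FPKM in WT replicates 1 to 4. The groups did not overlap, and KO replicate 1 was the KO library closest to WT. Means were 13.6 ± 3.33 FPKM in KO and 22.9 ± 2.58 FPKM in WT (SD, n = 4 each), a log2 difference of -0.75 (SE 0.15) that did not pass (limma, adjusted p = 0.308; exact permutation p = 0.0286, the smallest possible). Without KO replicate 1 the KO mean was 11.9 ± 0.674 FPKM (SD, n = 3), the difference -0.90 (SE 0.10, 95% interval -1.14 to -0.67), and it passed (limma, adjusted p = 0.0105). The genes Gm15970 and Gm32312 are annotated on the opposite strand over the span of Ostn. Gm15970 is listed at 0 in every library, and no value is given here for Gm32312. Whether their exons overlap those of Ostn was not tested. No strand setting is given in the sources used here, so any reads of Gm32312 over exons of Ostn cannot be told apart from those of Ostn.

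With all 8 libraries 0 of the 4 measurable members passed, against 0.0505% of the 11878 genes tested (limma). At an unadjusted p under 0.05 stood 3 of the 4 members and 10.3% of all genes tested. Without KO replicate 1, 2 of 4 passed, Fndc5 higher and Ostn lower, against 0.951% of genes called higher and 0.101% called lower (1.05% in all). The groups did not overlap for 2 of 4 members with all libraries, Metrnl above and Ostn below WT, where 3.89% and 1.61% of all genes did so in those directions and 5.5% in either. Without KO replicate 1 they did not overlap for 3 of 4, Fndc5 and Metrnl above and Ostn below WT, where 9.35% and 4.51% of all genes did so and 13.9% in either direction. Both calls without KO replicate 1 were lost when the named genes of each library were scaled to 1 common sum (limma, adjusted p = 0.951 for Fndc5 and 0.503 for Ostn). That sum was dominated in KO replicate 4 by a single entry, Atg7, with 54.9% of it, and in WT replicate 3 by Gm22953, with 41.8%. Scaled over genes above 0 in every library instead, the differences without KO replicate 1 were 0.92 and -1.002 (limma, adjusted p = 0.00860 each).

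**Figure D2:**
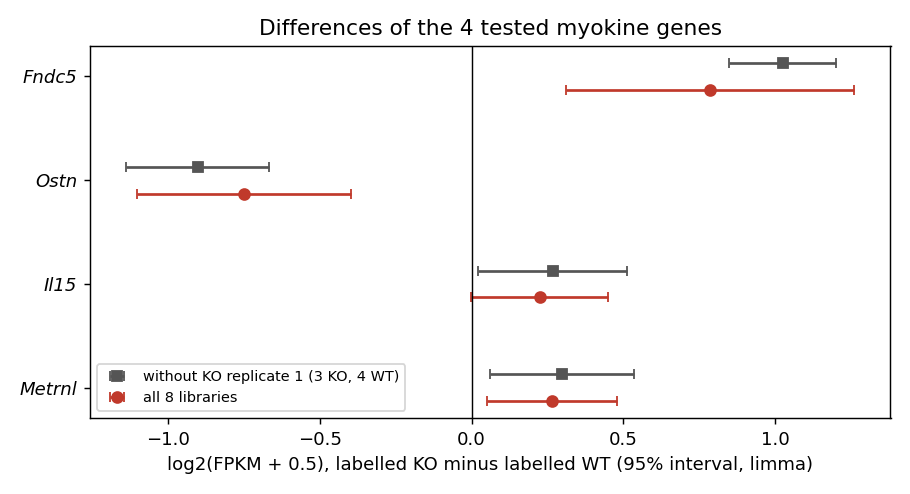
Difference in log2(FPKM + 0.5), KO minus WT, for the 4 measurable genes, with 95% intervals of limma from all 8 libraries (red circles) and without KO replicate 1 (grey squares). For Fndc5 the interval runs from 0.31 to 1.26 with all libraries and from 0.85 to 1.201 without KO replicate 1, while those of Il15 and Metrnl stay close to each other.

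Fndc5 and Ostn together separated KO replicates 2 to 4 from the other 5 libraries. The ratio of Fndc5 to Ostn FPKM was 1.44, 4.49, 4.89 and 3.86 in KO replicates 1 to 4, against 1.23, 0.975, 1.25 and 1.06 in WT replicates 1 to 4. KO replicate 1 was the highest of the lower 5, just above the WT range. Among the other 3 libraries labelled KO, the one with the most Fndc5 (replicate 3) had the least Ostn, and the one with the least Fndc5 (replicate 4) had the most Ostn.

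**Figure D3:**
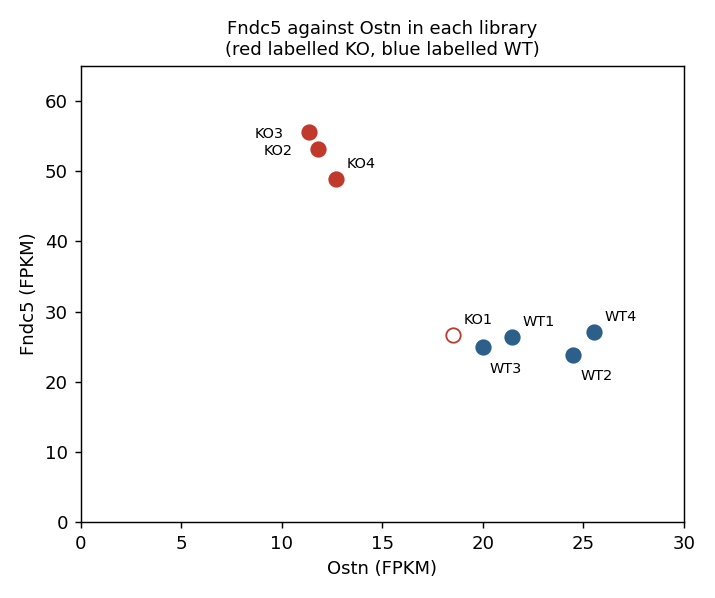
Fndc5 (vertical, FPKM) against Ostn (horizontal, FPKM) in each of the 8 libraries, red for those labelled KO (open circle: KO replicate 1) and blue for those labelled WT. KO replicates 2 to 4 lie apart at upper left with ratios of 3.86 to 4.89, and KO replicate 1, at 1.44, lies beside the WT libraries.

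Il15 differed little. It stood at 16.6, 17.4, 18.6 and 20.6 FPKM in KO replicates 1 to 4, against 14.9, 16.2, 13.7 and 17.7 FPKM in WT replicates 1 to 4. The groups overlapped, with WT replicate 4 above KO replicates 1 and 2. The means of 18.3 ± 1.75 FPKM in KO and 15.6 ± 1.72 FPKM in WT (SD, n = 4 each) gave a log2 difference of 0.22 (95% interval -0.00 to 0.45; limma, adjusted p = 0.489; exact permutation p = 0.0857). Without KO replicate 1 it was 0.27 (95% interval 0.02 to 0.51; limma, adjusted p = 0.318).

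Metrnl was slightly higher in each library labelled KO than in any labelled WT. It stood at 12.5, 14.6, 12.9 and 13.8 FPKM in KO replicates 1 to 4, against 9.62, 10.7, 11.7 and 12.5 FPKM in WT replicates 1 to 4. The gap between the groups was narrow, 12.51 FPKM in KO replicate 1 against 12.46 in WT replicate 4. Means were 13.4 ± 0.925 FPKM in KO and 11.1 ± 1.23 FPKM in WT (SD, n = 4 each). The log2 difference of 0.27 (SE 0.09) did not pass (limma, adjusted p = 0.401; exact permutation p = 0.0286, the smallest possible), nor did that of 0.30 without KO replicate 1 (limma, adjusted p = 0.255; exact permutation p = 0.0571). Macrophages also make Metrnl. All 9 of their markers were tested, none was at 0, and their summed FPKM ran from 328 to 492 in KO and from 294 to 415 in WT. The part of macrophages in the Metrnl values was not tested.

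Fgf21 gave no comparison. It was listed at 0.119 FPKM in KO replicate 1 and at 0 in KO replicates 2 to 4, against 0.0334 FPKM in WT replicate 2 and 0 in the other 3 WT libraries. By the rough depth these values were worth about 4.7 fragments in KO replicate 1 and about 1 in WT replicate 2. An exact 0 in these files need not be a low level: Tnnt3, the fast troponin T, is listed at 0 in 4 libraries and at 7955 to 8888 FPKM in the other 4, and Atp2a1, the fast calcium pump, is listed at 0 in 7. Whether the zeros of Fgf21 are low levels cannot be told from the files.

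Gdf15 was above 0 in all 8 libraries but low. It stood at 0.250, 0.251, 0.1002 and 0.415 FPKM in KO replicates 1 to 4, against 0.207, 0.0570, 0.143 and 0.0713 FPKM in WT replicates 1 to 4. The highest values were of 3 libraries labelled KO, while KO replicate 3 lay within the WT range. The lowest of them, in WT replicate 2, was worth about 2.8 to 3.2 fragments and the highest, in KO replicate 4, about 19.7 to 22.5, depending on the transcript. The exact permutation p was 0.143 (two-sided), and 0.200 without KO replicate 1, where the smallest possible is again 0.0286.

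The genes most like each member over the 8 libraries were ranked by Pearson correlation of log2(FPKM + 0.5), given as a description since all share the same libraries. For Fndc5 they were Decr1, a reductase of fatty acid oxidation (r = 0.99), Smtnl1, a smoothelin-like protein of muscle (0.99), and Myh2, a myosin heavy chain of fast oxidative muscle (0.99). Myh2 stood at 125, 494, 447 and 391 FPKM in KO replicates 1 to 4, against 127, 96.6, 141 and 156 FPKM in WT replicates 1 to 4. Smtnl1 stood at 19.4, 49.5, 51.4 and 43.0 FPKM in KO replicates 1 to 4, against 18.3, 15.4, 21.3 and 21.5 FPKM in WT replicates 1 to 4. In Myh2 KO replicate 1 thus lay inside the WT range and the other 3 far above it, the pattern of Fndc5. With each group's mean taken away, those closest to Fndc5 were Pcp4l1, Fhl2 and Usp37 (r = 0.99, 0.98 and 0.98). Those like Ostn were Ufsp2, a protease of the UFM1 pathway, Prmt5, an arginine methyltransferase, and Wwp1, a ubiquitin ligase (r = 0.98, 0.96 and 0.96). Cep57, Atmin and Hdac3 were closest to Ostn within groups (0.98, 0.97 and 0.97). Each of them, like Ostn, was highest of the KO libraries in KO replicate 1. Lrif1, Pgm3 and Dhx30 were closest to Il15 (0.96, 0.96 and 0.95), with Kansl1, Zfp580 and Adk within groups (0.99, 0.99 and 0.96). Actr6, H2-Q7 and Ifi203, joined with Mndal, were closest to Metrnl (0.99, 0.98 and 0.96), with Ostf1, Pdgfd and Actr6 within groups (0.99, 0.99 and 0.98).

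Single markers of muscle, of slow fibres and of fat cells differed in KO replicates 2 to 4, but most of each list did not pass. Of 8 muscle markers 6 were tested. With all libraries 0 passed and 3 had a positive log2 difference (median -0.04). Without KO replicate 1 Mb alone of them passed, and 2 were positive (median -0.11). Mb (myoglobin) stood at 1838, 4704, 3645 and 4010 FPKM in KO replicates 1 to 4, against 1624, 1695, 1686 and 1937 FPKM in WT replicates 1 to 4. Without KO replicate 1, both Mb (log2 difference 1.24) and Myh2 (1.78) passed the test (limma, adjusted p = 0.00647 each), and with all libraries neither did (0.347 and 0.353). All 8 slow fibre markers were tested, none was at 0, and 7 had a positive log2 difference (median 0.22), with Myh7, joined with Myh6, at -0.09. Their summed FPKM ran from 1006 to 2107 in KO, with 1006 in KO replicate 1, and from 779 to 1283 in WT. The slow light chain Myl2 stood at 272, 605, 876 and 763 FPKM in KO replicates 1 to 4, against 260, 198, 353 and 298 FPKM in WT replicates 1 to 4, again with KO replicate 1 inside the WT range, and was the only one of the 8 to pass without that library (limma, adjusted p = 0.0218). Of 7 fast glycolytic markers 6 were tested and 0 passed with or without KO replicate 1 (median -0.06), and 3 of the 7 are listed at 0 in some library. That median includes Tnnt3 and Atp2a1, whose zeros are described above. The tested markers never at 0 were Mylpf (-0.14), Tnni2 (0.02), Pvalb (-0.28) and Actn3 (-0.25). Without KO replicate 1 they stood at -0.23, -0.05, -0.49 and -0.34. Among 6 tested markers of fat cells 0 passed with all libraries, and 5 of 6 had a log2 difference below 0 (none at 0 FPKM; summed FPKM 283 to 456 in KO and 326 to 429 in WT). Lep (leptin), the marker with the largest difference, stood at 2.79, 0.577, 0.324 and 0.353 FPKM in KO replicates 1 to 4, against 2.29, 4.40, 3.88 and 2.88 FPKM in WT replicates 1 to 4, and was the only one of the 6 to pass without KO replicate 1 (log2 difference -2.05, limma, adjusted p = 0.0105). Without that library the groups still overlapped for Adipoq, Cfd, Cidec and Retn, but not for Plin1 (log2 difference -1.003, limma, adjusted p = 0.101). None of the 6 was then above 0. Among the fibre markers, Myl2, Myl3 (0.76, limma, adjusted p = 0.0710) and Pvalb (-0.49, limma, adjusted p = 0.241) did not overlap then. Beside these fibre and fat markers, 13.9% of all genes tested did not overlap without that library, 9.35% above and 4.51% below WT. Myl3 and Pvalb did not pass, and the other fibre markers tested overlapped. The part of fibre type and of fat in the values of Fndc5 and Ostn was not tested.

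**Figure D4:**
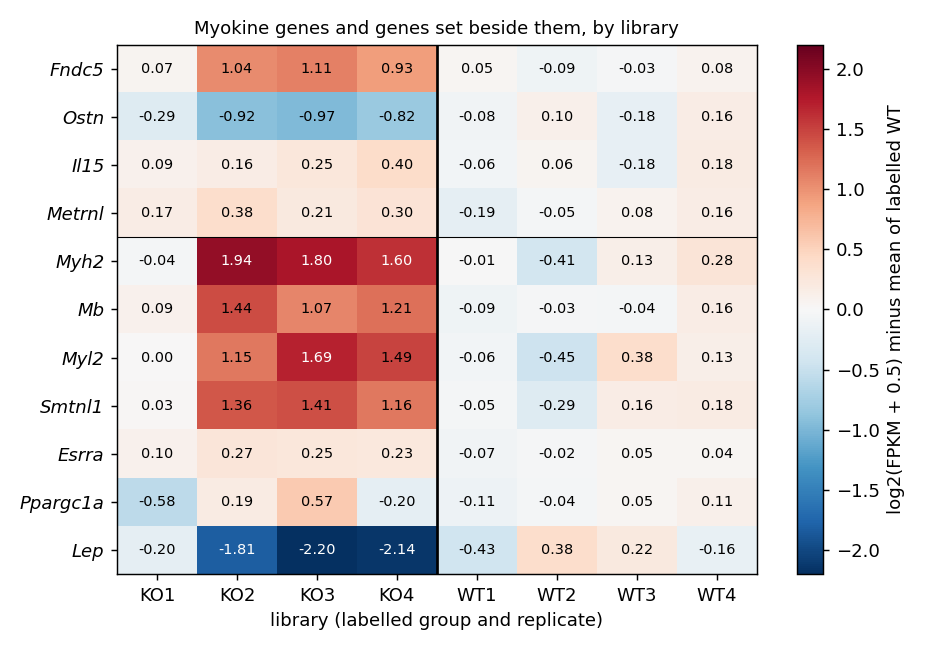
Level of each gene in each library as log2(FPKM + 0.5) minus the mean of the libraries labelled WT, with the KO libraries at left, the 4 measurable myokine genes in the upper rows and genes set beside them in the lower rows. Fndc5, Myh2, Mb, Myl2 and Smtnl1 are above and Ostn and Lep below the WT mean in KO replicates 2 to 4, while KO replicate 1 is near 0 for most of them (0.07 for Fndc5, -0.04 for Myh2).

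Regulators of the members did not pass. Of 17 regulators, all measurable, 0 were called with or without KO replicate 1, and 8 had a positive log2 difference (median -0.01, against 0.02 over all genes tested). Ppargc1a (PGC-1alpha) stood at 7.80, 13.6, 17.9 and 10.3 FPKM in KO replicates 1 to 4, against 11.0, 11.5, 12.3 and 12.8 FPKM in WT replicates 1 to 4, so the KO libraries lay on either side of a narrow WT range. Its partner Esrra was 63.4 ± 3.31 FPKM in KO and 54.6 ± 2.196 FPKM in WT (SD, n = 4 each), without overlap (log2 difference 0.21, limma, adjusted p = 0.353). Mef2c, an activator of muscle genes, stood at a difference of 0.02. Foxo1, a factor of fasting and insulin signalling, gave -0.14, where WT replicate 3 stood at 19.4 FPKM and the other WT libraries at 5.13 to 7.10. Ppara, which drives Fgf21 in mouse liver, gave 0.19. None of these 3 passed.

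Stress response genes, through which Fgf21 and Gdf15 are known to be induced, did not pass. Atf4 was abundant, at 143 ± 12.2 FPKM in KO and 149.8 ± 4.37 FPKM in WT (SD, n = 4 each; log2 difference -0.07), and Ddit3 stood at a log2 difference of 0.36 (limma, adjusted p = 0.546). Of 16 targets of the integrated stress response 15 were tested and 0 passed with or without KO replicate 1. Their median difference was 0.13, with 9 of 15 above 0, beside 54.4% of all genes tested. The targets with the smallest p were Phgdh and Psat1, enzymes of serine synthesis, at -0.40 and 0.20. The regulators with the smallest p were the stress factor Atf3 (2.88 ± 0.405 FPKM in KO and 5.01 ± 1.08 FPKM in WT, SD, n = 4 each; difference -0.69, limma, adjusted p = 0.336) and the kinase Eif2ak3 (0.53, adjusted p = 0.347).

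Receptors of the myokines were present in muscle to very different degrees. Of 19 genes of receptors and their signalling 15 were tested, 0 passed with or without KO replicate 1, and 8 had a positive difference (median 0.04). Itgav and Itgb5, chains of an integrin that binds irisin, averaged 11.7 and 36.0 FPKM in KO and 12.3 and 39.3 FPKM in WT. Npr3, the receptor of osteocrin, averaged 2.40 ± 0.464 FPKM in KO and 2.33 ± 0.524 FPKM in WT (SD, n = 4 each; log2 difference 0.04). Npr2, the signalling receptor of C-type natriuretic peptide, stood at 21.1, 268, 20.8 and 22.5 FPKM in KO replicates 1 to 4, against 19.9, 20.8, 20.1 and 23.6 FPKM in WT replicates 1 to 4, so KO replicate 2 alone lay outside the WT range, and the difference of 0.93 did not pass (limma, adjusted p = 0.727). Il15ra, which presents Il15, averaged 8.98 FPKM in KO and 8.15 FPKM in WT, and Il2rb, its signalling chain, reached at most 0.368 FPKM. Fgfr1 averaged 34.3 FPKM in KO and 32.9 FPKM in WT, but Klb, the co-receptor that Fgf21 needs, reached at most 0.361 FPKM. Gfral, the receptor of Gdf15 in the hindbrain, is listed at 0 in all 8 libraries. The gene of this group with the smallest p was Stat5a, a transcription factor of cytokine signalling (0.52, limma, adjusted p = 0.432).

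Proteases that process such proteins and other secreted factors of muscle did not pass either. Of 8 proteases 7 were tested and 2 had a positive difference. Fap, which inactivates Fgf21 in humans, stood at 0.29 (limma, adjusted p = 0.424) and Furin, a convertase of prohormones, at -0.11. Of 31 other secreted factors 24 were tested, 0 passed with or without KO replicate 1, and 13 were above 0 (median 0.02). The paralogs Fndc4 (-0.15) and Metrn (0.06, joined with Fam173a) did not pass. The smallest p were those of Tgfb2, a TGF-beta ligand (9.60 ± 1.73 FPKM in KO and 14.3 ± 1.07 FPKM in WT, SD, n = 4 each; difference -0.56, limma, adjusted p = 0.336), and Vegfb, a growth factor of vessels and lipid uptake (131 ± 8.01 FPKM in KO and 111 ± 7.85 FPKM in WT, SD, n = 4 each; difference 0.25, limma, adjusted p = 0.353).

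In position, the 6 genes lie on 5 chromosomes. In mm10, counting from 1, the entries span chromosome 4, 129136999 to 129144593 for Fndc5 (ENSMUSG00000001334), chromosome 16, 27307416 to 27352803 for Ostn (ENSMUSG00000052276) and chromosome 8, 82331624 to 82403265 for Il15 (ENSMUSG00000031712). They span chromosome 11, 121701544 to 121716510 for Metrnl (ENSMUSG00000039208), chromosome 7, 45613907 to 45615490 for Fgf21 (ENSMUSG00000030827) and chromosome 8, 70629393 to 70632456 for Gdf15 (ENSMUSG00000038508). Each value covers the whole protein-coding gene, so exons and UTRs are not told apart.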

How the data were processed

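RNA from 8 quadriceps samples (4 labelled KO, 4 labelled WT) was sequenced as paired-end reads of 150 bases after oligo(dT) and Ribo-Zero selection, per the labels' protocols. The authors deposited FPKM per gene entry, per the file headers. TopHat2 2.1.1, Bowtie2 2.2.6, Cufflinks 2.2.1 and build mm10 stand in the submitters' processing notes, without the role of each. The annotation, filters and strand setting are not given in the sources used here. The files hold no counts, so no counting interval is given. Depth was estimated from the most crowded low value of genes with 1 transcript, within preset bounds of 20 and 100 M fragments (M for mega), so it is rough.

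Of 46036 entries 2379 had no name and were left out. These held from 65.8% (KO replicate 4) to 93.2% (WT replicate 4) of the summed FPKM of a library. How they bear on the scaling of the deposited levels was not tested. For a repeated name the entry with the highest mean was used. The 11878 genes that averaged 1 FPKM or more were tested as log2(FPKM + 0.5) with limma 3.58.1 in R 4.3.3 (genotype alone, mean trend, two-sided), adjusted by Benjamini-Hochberg at 0.05. The 6 members were also compared by exact permutation over 70 assignments (35 without KO replicate 1), with p not adjusted over the 6. The fit was also run on simulated data with independent noise between libraries, so that run says nothing of a library that stands apart. The labels give no batch. They do not state outright that the samples are of separate animals, so p-values measure the spread between these samples. Members, lists, rules and the choice of KO replicate 1 as the library to leave out were made with earlier results of these data known. Named were the members, their receptors, direct regulators and paralogs, every listed gene past the threshold, the 2 listed genes of each list with the smallest p, and the 3 genes most correlated with each measurable member. Mb, the fibre and fat markers, Atg7 and Gm22953 were named after their values were seen. The older symbol Fam132b stood for Erfe, by the RefSeq table. Alternatives were other pseudocounts, filters, scalings, robust or weighted fits, a replicate block and each library left out.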

Additional observations from a re-analysis of the deposited data

Results flagged for a closer look

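Among 139 groups of 4 libraries with any spread, over the genes named here, 14 had a library far from the rest. Its gap to its nearest neighbour took up nearly the whole range of the group, a limit that chance passes in about 1 in 20 groups. That rate is for genes not picked by their values. Several here were named after their values were seen or for their likeness to a member, so the count cannot be set against it. In 5 of the 14 the other 3 libraries are listed at 0, which gives such a gap whatever the value. These were Fgf21, at 0.119 FPKM in KO replicate 1 and at 0.0334 FPKM in WT replicate 2, Atp2a1, at 6599 FPKM in KO replicate 2, Atg7, at 921731 FPKM in KO replicate 4, and Gm22953, at 469610 FPKM in WT replicate 3.

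Of the other 9, KO replicate 1 was the library apart in 4. Mss51 had 340 FPKM there, against 201 to 216 FPKM in the other 3 libraries labelled KO, and Lep had 2.79 FPKM, against 0.324 to 0.577 FPKM. Decr1 had 49.5 FPKM there, against 56.9 to 57.8 FPKM, and Pcp4l1 had 16.6 FPKM, against 27.2 to 28.8 FPKM. Fndc5 and Ostn of KO replicate 1 did not reach that limit. Npr2 had 268 FPKM in KO replicate 2, against 20.8 to 22.5 FPKM in the other libraries labelled KO, and Fndc4 had 0.953 FPKM in KO replicate 3, against 1.68 to 1.78 FPKM. Foxo1 had 19.4 FPKM in WT replicate 3, against 5.13 to 7.10 FPKM in the other WT libraries. Il2rb had 0.110 FPKM in WT replicate 2, against 0.205 to 0.220 FPKM, and Cidec had 15.1 FPKM in WT replicate 1, against 25.8 to 28.0 FPKM.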

How the results depend on the processing

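Fndc5 stayed above 0 and Ostn below 0 in each of the 23 alternatives. With 1 library left out in turn, the log2 difference was 0.68 to 1.03 for Fndc5, -0.90 to -0.68 for Ostn, 0.17 to 0.28 for Il15 and 0.20 to 0.32 for Metrnl, and the number of genes called over all was 4 to 125, the highest without KO replicate 1 (113 higher and 12 lower). Further settings without that library were chosen after seeing the data. Then 118 genes (97 higher and 21 lower) were called with quantile normalization (Fndc5 0.99, Ostn -0.94), 79 (55 higher and 24 lower) when scaled over genes above 0 in every library (Fndc5 0.92, Ostn -1.002), and 120 (58 higher and 62 lower) when named genes were scaled to 1 common sum. In that last setting Il15 stood at -0.0454 and Metrnl at -0.00872, but the median of all genes at -0.26, so relative to it they stood at 0.22 and 0.26. With all 8 libraries this rescaling called 119 genes (63 higher and 56 lower, against 6 and 0) and moved the median of all genes to -0.18, with Il15 at 0.02 and Metrnl at 0.06. Scaling over genes above 0 in every library called 6 higher and 1 lower, with Il15 at 0.13 and Metrnl at 0.17 (95% interval -0.04 to 0.38), against 0.22 and 0.27 as deposited, and the median of all genes at -0.07. With a pseudocount of 0.1, the difference was 0.18 for Fgf21 and 0.67 for Gdf15, against 0.05 and 0.27 with 0.5, as low values lean on the pseudocount. With the replicate block, limma called 0 genes with all 8 libraries and 0 without KO replicate 1 (958 and 1011 at an unadjusted p under 0.05). Deviations of libraries with the same number correlated at -0.0809 to 0.00933, so the numbers were not taken as pairs. Such values cannot show that no pairing existed. In that block without KO replicate 1, Fndc5 stood at 1.04 and Ostn at -0.93 (limma, adjusted p = 0.192 each). Fits for Fgf21 and Gdf15, under the filter, were left out of the robust, weighted, quantile, block and 5 FPKM settings.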
